A study of Mus musculus with 2 samples.

Results

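LIM-homeodomain genes encode transcription factors that join a pair of zinc-binding LIM domains to a DNA-binding homeodomain. The LIM domains bind the adaptor Ldb1 or Ldb2, which brings factors together into larger complexes, and LIM-only proteins (Lmo) compete for the same adaptors. In the developing retina members of the family act at several steps, from progenitors to ganglion cells, amacrine cells, horizontal cells, bipolar cells and cones.

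The genes described are Isl1, Isl2, Lhx1, Lhx2, Lhx3, Lhx4, Lhx5, Lhx6, Lhx8 and Lhx9, which were chosen by family membership. A gene counted as having a peak if it had a row in the deposited gene table, which pairs genes with POU3F1 peaks. Of these 10 genes 3 had a row, out of 2323 genes in the table, and they held 12 of its 4427 gene-peak pairs. The pairs fell on 12 different peaks among the 2652 of the peak list.

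The peaks came from CUT&RUN, in which an antibody directs a nuclease to its target on chromatin and the released DNA is sequenced. The material was retina of wild-type (WT) mouse embryos of the CD1 strain at E14, that is, embryonic day 14. There was 1 library for POU3F1, a transcription factor of the POU class, and 1 control library for rabbit IgG, an antibody without a mouse chromatin target. Both came from whole retina, so a peak cannot be placed in a retinal cell type, and neither RNA nor replicates were measured in these samples. All comparisons are therefore descriptions within 1 peak list, without a test, and the IgG signal was not analysed here.

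Windows before start sites of Isl1 and Lmo1 are shown. Isl1 was taken because it had the most peaks of the family, at distances counted from this start. Lmo1, a LIM-only gene, was taken because a strong peak overlapped windows of its starts, and the window with the longer overlap is shown. Each line gives the 250 bases before a RefSeq start site in GRCm38.p6, 5′ to 3′ on the minus strand, at chr13:116309689-116309938 for Isl1 and chr7:109175208-109175457 for Lmo1. Capitals mark the homeodomain-type motifs that were found.
Isl1: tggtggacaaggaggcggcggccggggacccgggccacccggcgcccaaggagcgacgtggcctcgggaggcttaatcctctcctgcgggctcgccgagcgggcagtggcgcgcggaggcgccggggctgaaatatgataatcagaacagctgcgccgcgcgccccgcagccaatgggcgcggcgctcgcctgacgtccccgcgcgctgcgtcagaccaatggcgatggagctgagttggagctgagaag
Lmo1: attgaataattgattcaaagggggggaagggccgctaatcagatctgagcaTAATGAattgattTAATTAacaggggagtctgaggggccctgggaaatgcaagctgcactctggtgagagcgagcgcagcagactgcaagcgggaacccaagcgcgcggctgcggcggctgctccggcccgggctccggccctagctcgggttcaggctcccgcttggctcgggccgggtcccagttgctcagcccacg

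The motifs searched on both strands were the octamer ATGCAAAT, the related sequences ATGCAT or ATGCTAAT, the homeodomain core TAATTA with its variant TAATGA, and the LIM-homeodomain type TAATGG; none contains another. In the Lmo1 window shown TAATGA began 199 bases and TAATTA 186 bases before the start, in the stretch of 194 bases that the peak covered, and they did not overlap each other. The peak also covered 136 bases of the window of another Lmo1 start, at chr7:109175150-109175399. That window had 72.0% G and C, and its only match was TAATTA, 244 bases before its start. Over all 32851 windows of this kind 8.59% held TAATGA and 4.84% held TAATTA. The Isl1 window, with 71.2% G and C against 61.2% for the Lmo1 window shown, held none of the 6. Each of the 6 was found in 8.59% of all windows or fewer, and the share of windows with none was not counted. Of the 10 LIM-homeodomain genes 9 were in the promoter table, and the only match among their windows was TAATGA, 75 bases before a start of Lhx6. A match is a description of the letters and does not show binding.

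Of the 10 LIM-homeodomain genes 3 had an assigned peak, against 10.2% of all protein-coding genes (2231 of 21900). Isl1 had 9 peaks, Lhx4 had 2 and Lhx9 had 1. With peaks within 50 kb of the transcription start site (TSS) alone, 1 of 10 had a peak, against 3.67% of protein-coding genes (803 of 21900). Within 5 kb 0 of 10 had, against 1.4% of protein-coding genes (306 of 21900), so with 10 genes both counts are near the background. The assignment lets a gene reach up to 1000 kb, as far as the domains of its neighbours, and the space around a gene is therefore given beside the counts. The space between the neighbouring protein-coding genes, gene included and at most 1000 kb on each side, was 1553 kb for Isl1, 232 kb for Lhx9 and 90.7 kb for Lhx4. For the 7 genes without a peak its median was 196 kb, and over all protein-coding genes it was 78.0 kb. This space runs between gene bodies, while the assignment runs between domains around start sites and can reach farther. The Lhx4 peak at 136257 bp, inside Acbd6, lay outside the space given for Lhx4. The part of this space in the counts was not tested.

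Enrichment at the 12 peaks spread around the median of the whole list. Fold enrichment is the authors' ratio of signal at the summit to local background. It was read here with a constant added to both, so it is below the plain ratio. For the 12 peaks it had a median of 6.50 and ran from 3.36 to 10.9. Over all 2652 peaks the median was 6.37, with quartiles of 4.91 and 8.84. Of the 12, 6 lay above that median and 6 below. The median summit pileup, the number of fragments stacked at the highest point, was 16.5 against 19 over the list's recovered peaks, and 8 of the 12 had fewer than 20 fragments, as had 51.5% of the 2609 peaks whose pileup could be recovered. Most of the 12 peaks therefore rest on few fragments.

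Isl1 encodes a factor needed for the differentiation and survival of retinal ganglion cells and made in some amacrine and bipolar cells. It lies on the minus strand of chromosome 13, at 116298270 to 116309688. Its 9 peaks spread over 1383 kb, all with midpoints outside annotated genes, with 2 upstream and 7 downstream of its TSS. The nearest was over 200 kb away, and the table had 33 genes with 9 or more peaks among 2270 that could be matched to the annotation.

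Upstream of Isl1, the nearer peak lay 205260 bp from the TSS, at 116514668 to 116515231, with 7.86-fold enrichment and a summit pileup of 23. The farther lay 402310 bp upstream, at 116711700 to 116712298, with 7.33-fold enrichment and a pileup of 14. Both were also assigned to Parp8, a gene of the ADP-ribosyltransferase family on the other side. The nearer peak was closer to the TSS of Isl1 (510573 bp from that of Parp8), and the farther was closer to Parp8 (313523 bp).

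Downstream of Isl1, the nearest peak lay 222053 bp away, at 116087389 to 116087884, with 5.56-fold enrichment and a pileup of 16. The next, 456714 bp downstream at 115852850 to 115853101, was the weakest of the 12, with 3.36-fold enrichment, a pileup of 11 and a −log10 q-value of 1.45. These were the only downstream peaks of Isl1 for which its TSS was closer than that of Itga1, the integrin subunit gene at the far end, to which all 7 were also assigned.

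A group of 3 peaks followed within 14.2 kb. They lay 622078 bp downstream (8.51-fold, pileup 25), 632500 bp downstream (4.72-fold, pileup 11) and 635735 bp downstream (7.10-fold, pileup 28). The last of these, at 115673557 to 115674351, was the longest of the 12 at 795 bp, against a median of 352 bp over the list. Peaks this close to another were not rare: 26.1% of all peaks had another within 20 kb.

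The Isl1 peak with the highest fold lay 907139 bp downstream, at 115402346 to 115402754, with 9.33-fold enrichment and a pileup of 18. It ranked 575 by fold among all 2652 peaks, but the peaks at 622078 and 635735 bp had higher pileups (25 and 28). The most distant, 980196 bp downstream, had 3.64-fold enrichment and a pileup of 12. The peaks at 907139 and 980196 bp were both closer to Itga1, at 300586 and 227529 bp from its TSS. Of the 9 Isl1 peaks, 3 were closest to the TSS of Isl1 among the genes they were assigned to.

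**Figure D1:**
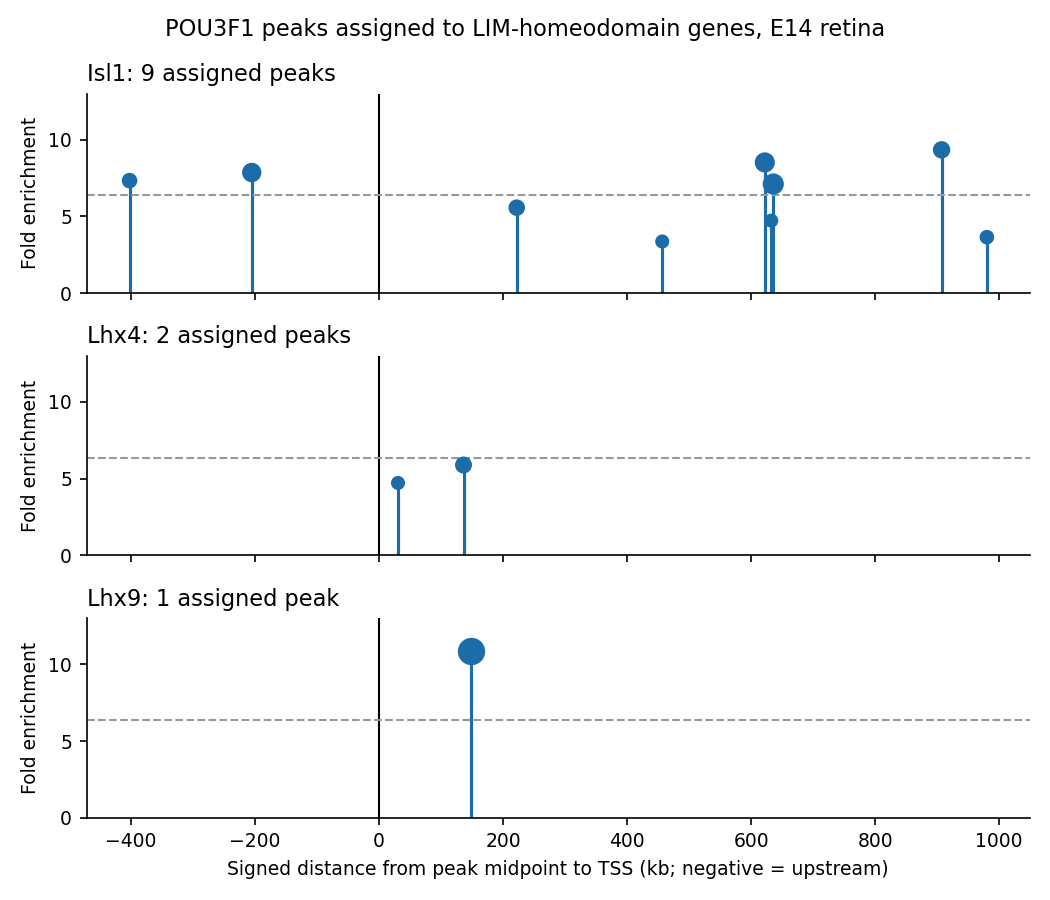
Fold enrichment of each assigned peak (vertical axis) against its signed distance to the TSS in kb (horizontal axis) for Isl1, Lhx4 and Lhx9. The area of a point grows with the summit pileup (11 to 49 fragments), the solid line is the TSS and the dashed line the median fold of all peaks, 6.37; the nearest peak to a start is that of Lhx4 at 30.6 kb, and the tight group of 3 peaks stands between 622 and 636 kb downstream of Isl1.

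Lhx4 encodes a factor of pituitary and motor neuron development that is also made in mouse cones and bipolar cells. It had the only peak inside any of the 10 gene bodies. That peak, at 155711364 to 155711568 on chromosome 1, lay 30561 bp downstream of the TSS within the gene body (155698031 to 155751726, minus strand). It was also the shortest of the 12 at 205 bp, with 4.72-fold enrichment and a pileup of 11. The same fold was listed for 22 peaks, among them the Isl1 peak at 632500 bp.

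The other Lhx4 peak lay 136257 bp downstream, at 155605556 to 155605984, inside the neighbouring gene Acbd6, which encodes an acyl-CoA binding protein. Its enrichment was 5.89-fold with a pileup of 17. Both Lhx4 peaks were also assigned to Acbd6, and this peak was closer to the TSS of Acbd6, at 47648 bp.

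Lhx9 encodes a factor of the gonad and of the developing forebrain that also acts in an amacrine cell subtype. Its single peak was the strongest of the 12. It lay 148066 bp downstream of the TSS on chromosome 1, at 138694099 to 138694627, with 10.9-fold enrichment, a pileup of 49 and a −log10 q-value of 33.8. It ranked 417 by fold in the list and was the only peak of the 12 at 10-fold or more, a level reached by 18.7% of all peaks. The midpoint lay in an annotated pseudogene, Gm8790, and the peak was also assigned to Nek7, a kinase gene whose TSS was closer, at 74614 bp. A stronger peak of 21.6-fold, inside Nek7 at 138547556 to 138548147, lay 277 kb from Lhx9 and was assigned to Nek7 and Atp6v1g3 only.

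All 12 peaks were thus shared with a neighbouring gene. Sharing was common in the list, where 4305 placed pairs fell on 2505 peaks. For 4 of the 12 the LIM-homeodomain gene had the closer TSS, while 58.2% of all placed pairs were with the gene of the nearest TSS. These shares are not like for like. A peak assigned to 1 gene counts as nearest by construction, and none of the 12 was such a peak. By number of shared peaks the genes most like Isl1 were Itga1 with 7 and Parp8 with 2, while Acbd6 shared 2 with Lhx4 and Nek7 shared 1 with Lhx9. Of the 12 pairs, 11 were longer than 50 kb and 5 longer than 500 kb, against 76.9% and 15.7% of all placed pairs. The 5 longest all belonged to Isl1. The median distance was 430 kb against 165 kb, and 10 of the 12 peaks lay downstream, against 57.5% of all pairs. Isl1 alone gave 9 of the 12 pairs and 7 of the 10 downstream peaks. Its gap to the next gene was 1000 kb or more downstream and 541 kb upstream. The part of these gaps in the values was not tested.

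The 7 genes without an assigned peak were not equally far from peaks. The distances that follow run from the gene body to the midpoint of the nearest peak of the list, whichever gene it was assigned to, and their median over all protein-coding genes was 627 kb. Over the 10 LIM-homeodomain genes the median was 214 kb, and 7 of the 10 had a peak within 500 kb, against 43.3% of protein-coding genes.

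Lhx1, which encodes a factor that sets horizontal cells in their layer, had a peak only 36.1 kb from its gene body. This peak, at 84481649 to 84482092 on chromosome 11, lay inside Aatf and was assigned to Aatf and Acaca. Its 11.8-fold enrichment exceeded that of all 12 assigned peaks, and its pileup was 23. Lhx1, without a row in the table, thus lay closer to a peak than Isl1 or Lhx9.

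Lhx2, a gene of the eye field and of retinal progenitors and Müller glia, had 4 peaks within 500 kb, the nearest at 157 kb. All 4 lay inside Dennd1a and were assigned to Dennd1a and Crb2, a gene of apical polarity in the retina. Their folds were 3.90, 4.42, 4.42 and 6.22, so none reached the median of the list. Their pileups were 45, 8, 8 and 18 in the same order, against a median of 19 over the list's recovered peaks.

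Lhx3, a factor gene of pituitary and motor neurons, had its nearest peak at 293 kb, a peak of 7.33-fold and pileup 44 inside Notch1. Lhx6, which acts in cortical interneurons, had its nearest at 223 kb (4.98-fold, pileup 10, assigned to Dab2ip and Ttll11). Lhx8, which acts in cholinergic neurons of the forebrain, had its nearest at 876 kb (3.93-fold, pileup 11).

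Isl2 and Lhx5 were the farthest from any peak. Isl2, which is made in ganglion cells that project to the contralateral side, had its nearest peak at 2930 kb on chromosome 9 (4.91-fold, pileup 9). Lhx5, a gene of the developing forebrain, had its nearest at 2459 kb on chromosome 5 (18.1-fold, pileup 73). The paralogs Isl1 and Isl2 thus differed in their surroundings: 4 peaks lay within 500 kb of Isl1 and none within 1000 kb of Isl2. The space between neighbouring genes also differed, 1553 kb for Isl1 and 37.6 kb for Isl2, and its part in this difference was not tested.

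In all, 19 peaks lay within 500 kb of a LIM-homeodomain gene body. The median per gene was 1.5, against a median of 0 and a mean of 0.901 over all protein-coding genes. Of the 19, 12 were not assigned to the gene they lay near, and the matching share over all genes was not counted. Those 12 had a median of 5.42-fold, and 2 reached 10-fold, the peaks near Lhx1 and in Nek7. Of these 12, 8 lay near 4 genes without a row in the table, Lhx1, Lhx2, Lhx3 and Lhx6.

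**Figure D2:**
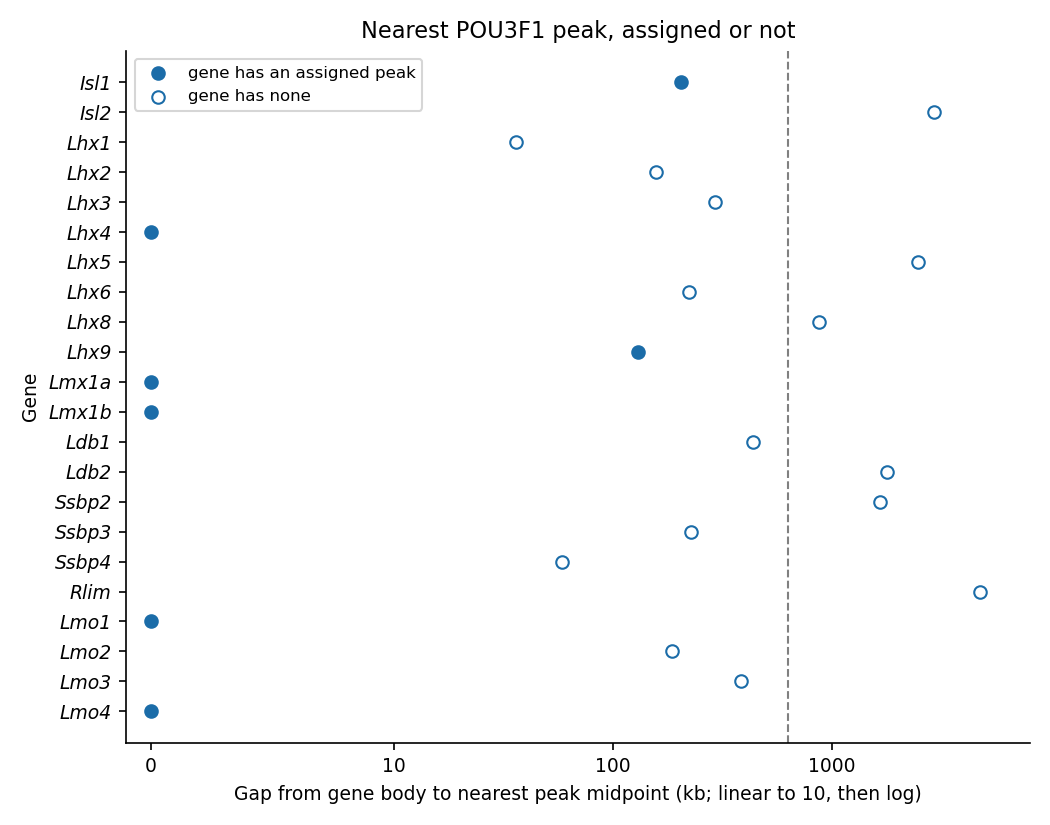
Gap in kb from the gene body to the nearest POU3F1 peak midpoint (horizontal axis, linear to 10 kb and logarithmic beyond) for LIM-homeodomain genes, adaptors and LIM-only genes (vertical axis). Filled points are genes with an assigned peak, open points genes without, and the dashed line is the median of protein-coding genes, 627 kb; Lhx1 is open at 36.1 kb, and Isl2 and Lhx5 lie at 2930 and 2459 kb.

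The family's other genes and partners were read from fixed lists. Both remaining LIM-homeodomain genes, Lmx1a and Lmx1b, known for midbrain dopamine neurons and, for Lmx1b, the eye's surrounding mesenchyme, had peaks. Lmx1a had 3, of 3.90-, 4.42- and 4.91-fold, and the 4.42-fold peak lay inside the gene, 127545 bp downstream of the TSS. Lmx1b had 2, a 9.28-fold peak inside the gene 24754 bp downstream (33615511 to 33616003 on chromosome 2) and a 4.74-fold peak 148510 bp upstream. With these, 5 of the 12 LIM-homeodomain genes listed had a peak, against 10.2% of protein-coding genes. Peaks at 5 kb or less from the start were listed for none of the 12, against 1.4%. The space between neighbouring genes was 480 kb for Lmx1a and 261 kb for Lmx1b, against a median of 78.0 kb over protein-coding genes. What this space adds to the counts was not tested.

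Of 6 genes of the adaptor complex 0 had an assigned peak, near the background of 10.2% of protein-coding genes. These were Ldb1 and Ldb2, the Ldb-binding Ssbp2, Ssbp3 and Ssbp4, and Rlim, a ubiquitin ligase that acts on Ldb proteins. Their nearest peaks lay between 58.4 kb (Ssbp4) and 4736 kb (Rlim, on chromosome X) from the gene body. The peak near Ssbp4 was strong (54.9-fold, pileup 452) and was assigned to Ell.

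Among genes of LIM-domain factors and their adaptors, LIM-only genes carried the strongest assigned peaks. Lmo1 and Lmo4, 2 of 4, had assigned peaks, against 10.2% of protein-coding genes, while Lmo2 and Lmo3 had none. The median space between neighbouring genes was 348 kb for these 4 genes. Lmo1 had 7 peaks within 117 kb on chromosome 7. The strongest, at 109175264 to 109175818, had 19.8-fold enrichment, a pileup of 100 and a −log10 q-value of 95.0, and it covers part of the Lmo1 window printed above. The gene table put it 5022 bp upstream of a TSS that lies 4.63 kb from the nearest RefSeq start, and its midpoint was 333 bp from a RefSeq start. A peak overlapped 214 of all 32851 start windows (0.651%).

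Further upstream of Lmo1, peaks of 19.6-, 15.5- and 18.5-fold lay 21004, 26138 and 61455 bp from the table's TSS. Each of these 4 upstream peaks exceeded all 12 peaks of the LIM-homeodomain genes in fold. The 3 remaining Lmo1 peaks, downstream of the table's TSS, had 4.44-, 5.56- and 5.60-fold. High and low peaks thus fell on different sides of that TSS.

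Lmo4, whose product is made widely in the nervous system, had 4 peaks. The strongest lay 414884 bp downstream, at 143789943 to 143790729 on chromosome 3, with 37.0-fold enrichment and a pileup of 118, and ranked 27 in the list. Another lay 590187 bp downstream (14.2-fold), and the remaining pair, 1572 bp and 290515 bp downstream, had 4.27- and 3.70-fold.

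For comparison with other homeobox families, 2 of 6 Dlx genes and 6 of 6 Irx genes had an assigned peak, against 10.2% of protein-coding genes. The median space between neighbouring genes was 781 kb for the Irx genes, 112 kb for the Dlx genes and 214 kb for the 10 LIM-homeodomain genes. Its part in these counts was not tested. The strongest folds had a median of 9.33 over Isl1, Lhx4 and Lhx9, and 9.56 over the Irx genes. It was 7.33 over the 2263 genes with a placed pair, while Dlx1 and Dlx2 shared a peak of 104-fold. These medians are not like for like, since the strongest of many peaks is more often high. The 9.33 is the highest of 9 Isl1 peaks, while 1408 of 2270 matched genes had 1 peak. Counted by peak, the 12 had a median of 6.50 against 6.37 over the list. A peak within 5 kb of the TSS was listed for 0 of 10 LIM-homeodomain genes, 1 of 6 Irx genes and 1 of 6 Dlx genes, against 1.4% of protein-coding genes. These counts are small, peaks are shared within families, and the differences between families were not tested.

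**Figure D3:**
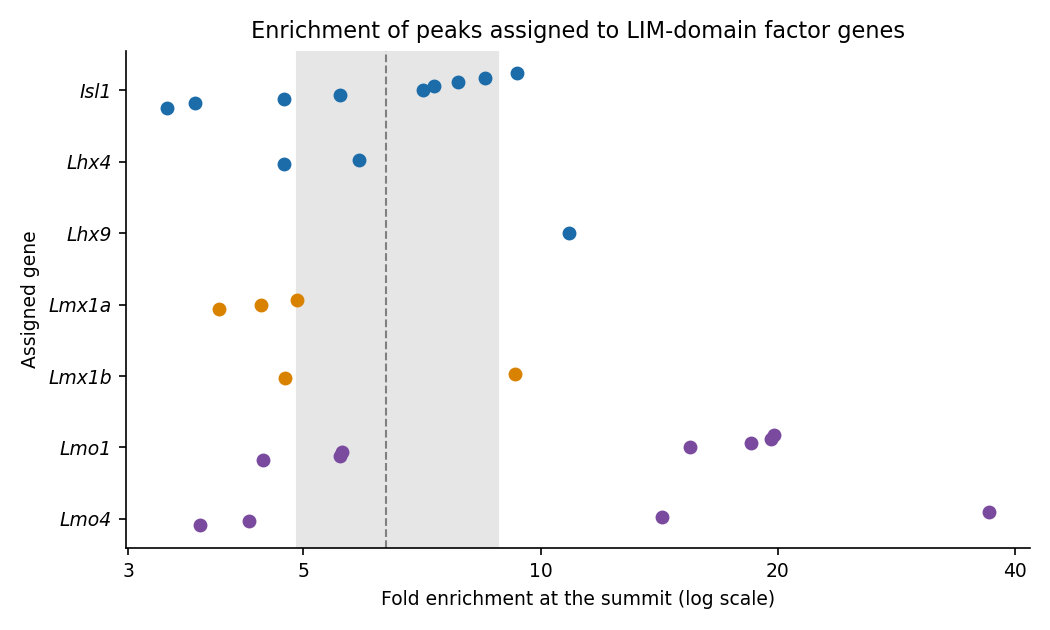
Fold enrichment of each assigned peak (horizontal axis, log scale) for Isl1, Lhx4, Lhx9, Lmx1a, Lmx1b, Lmo1 and Lmo4 (vertical axis); points of a gene are set apart vertically for legibility. The dashed line is the median of all 2652 peaks (6.37) and the grey band their quartiles (4.91 to 8.84); LIM-homeodomain genes stay at or below 10.9-fold, and 4 Lmo1 and 2 Lmo4 peaks lie above 14-fold.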

How the data were processed

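Per the submitters' processing notes, Bowtie2, MACS2 and deepTools were used on mm10; the sources used here give no versions and do not say whether IgG served as control. The authors' deposited peak list gives for each peak a fold enrichment (a ratio), −log10 p- and q-values and a score. Per the file headers, the gene table was made with GREAT 4.0.4 (5000 bp upstream, 1000 bp downstream, up to 1000000 bp extension, curated domains).

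Each distance was placed on a peak midpoint within 1 bp, with 1 TSS per gene, which placed 4305 of 4427 pairs (97.2%) and all 12 of the family. Summit pileups were recovered from fold and p-value (within 0.001) for 2609 peaks, including all 12. Library depth is unknown. The recovery was tested on 500 simulated peaks and found the pileup in 100%. These were made with the formula that the recovery inverts, so the test checks the inversion and not the formula. Simulated backgrounds stayed below the 3.60 of the Lhx9 peak and the 3.08 of the Isl1 peak at 635735 bp. Some peaks of Lmo1, Lmo4 and Lmx1a also had backgrounds above the simulated ones. Gene bodies, start sites and sequences came from RefSeq, GRCm38.p6. Coordinates are mm10, counted from 1. Python 3.11.15, pandas 2.3.3 and scipy 1.17.1 were used.

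Members and lists were chosen with earlier results of these data known. Named were all 10 members, genes sharing their peaks, genes beside them, and list genes with a peak; nearest peaks of other genes and the genes they were assigned to were named after their values were seen. No test was made, because each antibody had 1 library.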

Additional observations from a re-analysis of the deposited data

How the results depend on the processing

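No paired analysis was possible because each antibody had 1 library. Of the main values, 3 genes with 12 pairs on 12 peaks and a median strongest fold of 9.33, the pairs and peaks became 7 within 500 kb (Isl1 4), and 4 with only the nearest TSS (Isl1 3, Lhx4 1, Lhx9 0; median 6.29). Within 50 kb 1 gene, Lhx4, kept 1 pair (Isl1 and Lhx9 0; median 4.72), and within 5 kb the counts were 0, with no median. At 10-fold or more 1 gene, Lhx9, kept 1 pair (Isl1 and Lhx4 0). These changes follow from the construction of each setting, which drops pairs. With q-values under 0.01 or 0.001, or a 10 bp tolerance, counts stayed within 1.5 times, 11 peaks passing at 0.01 and 10 at 0.001. Peaks near 10 fragments are thinly supported: pileups ran from 11 to 49, and depth sets which weaker peaks could be seen.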
